A study of Homo sapiens with 2 samples.

Results

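OGT and OGA are the only pair of human enzymes that cycle O-GlcNAc, a single sugar carried on serine and threonine residues of nuclear and cytoplasmic proteins. OGT, the O-GlcNAc transferase, adds the sugar from UDP-GlcNAc, and OGA, the O-GlcNAcase, removes it. Cells adjust both enzymes through their RNAs, which hold regulated introns, and OGA is also made as a short form whose transcript ends early, inside an intron. The positions of C-to-U editing on these 2 RNAs are described here. They are 2 of the 12178 genes with a listed edit in either library. Loci of the long-read isoform models were named by their largest exonic overlap with an annotated gene on the same strand, and every listed position of the OGT and OGA loci was kept, introns included. This gave 94 of the 213041 listed positions and 52 of the 119827 isoform models. The rule itself used no measured value, although the genes were proposed with earlier results of these data known.

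HEK293T cells, a human embryonic kidney line that the labels also write as HEK293XT, were fixed with methanol. Both samples received a purified fusion of the cytidine deaminase APOBEC1 to a nanobody against rabbit IgG. In the RBFOX2 sample a rabbit antibody to RBFOX2, which regulates splicing and recognizes UGCAUG, was bound first, and the enzyme-only sample received the fusion without that antibody and so measures background editing. RNA of each was sequenced as full-length cDNA on a PacBio instrument, in 1 library per group. With 1 library per group no p-value can be had, and each comparison is between these 2 libraries rather than between the conditions. Values in brackets are 95% intervals by the exact Clopper-Pearson method. They reflect counting error alone, because 1 library per group holds no spread between samples. Reads were not tied to molecules by identifiers, so reads copied from the same molecule could make even that error too small. Where a count was 0, the share it is said to allow is 3 counts over the number of sites, slightly below the exact limit.

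The RBFOX2 library listed 121930 sites and the enzyme-only library 103684, or 50.1 and 46.4 per 1000 gene reads. Reads summed to 2431345 and 2233600 over the listed genes. Most defining markers of kidney epithelium were not seen: of 9, 3 had an isoform model (PAX2, LRP2 and AQP1), and PAX2 and LRP2 had a listed site, at no more than 12 reads. A gene is seen here only through a listed site or an isoform model, so not being seen does not measure its expression. None of 6 markers of fibroblasts, endothelium and leukocytes had either.

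OGT lay on the plus strand of chromosome X. Its locus, PB.51705 (ENSG00000147162.15), spanned chrX:71547544-71575890 of hg38 and its models covered 5076 exonic bases with 1028 cytosines. OGA lay on the minus strand of chromosome 10. Its locus, PB.30805 (ENSG00000198408.14), spanned chr10:101784445-101818447 and covered 6852 exonic bases with 1283 cytosines. Each locus overlapped 1 annotated gene.

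Both RNAs carried more listed sites in the RBFOX2 library than in the enzyme-only library. OGT had 26 sites with RBFOX2 antibody and 11 with the enzyme alone, from 214 and 189 reads of the gene. None of these positions was listed in both libraries. OGA had 36 and 20 sites found in a single library, from 324 and 300 reads, and 1 further position listed in both. In these bulk samples fewer cells making an RNA and less of it per cell cannot be told apart, so gene reads serve here only as depth. The depth of OGT was 1.1 times as high in the RBFOX2 library and that of OGA 1.08 times.

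Scaled by the number of sites in each library, the log2 ratio of RBFOX2 over enzyme-only was 0.94 for OGT (-0.09 to 2.14) and 0.57 for OGA (-0.24 to 1.45). Both intervals held 0. Neither gene was past 2-fold by this scaling, but scaled by its own gene reads OGT was, at a log2 ratio of 1.03, while OGA was at 0.72. Among 3604 genes with at least 20 sites the median log2 ratio was 0.08, OGT stood above 81.9% of them and OGA above 69.9%. Of these genes 16.8% were more than 2-fold higher in the RBFOX2 library and 14.6% more than 2-fold lower. With the shared position counted, sites per 1000 gene reads were 121 and 58.2 for OGT and 114 and 70.0 for OGA. Per 100 exonic cytosines, OGT listed 2.53 (1.65 to 3.71) in the RBFOX2 library against 1.07 (0.534 to 1.91) with the enzyme alone. OGA listed 2.81 (1.97 to 3.88) and 1.56 (0.952 to 2.41). For each gene the intervals of the libraries overlapped.

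Nearly every site rested on a single read. A site of OGT with 1 converted read had an edit fraction of 0.467% in the RBFOX2 library against 0.529% with the enzyme alone, and for OGA these were 0.309% and 0.333%. The fraction divides the converted reads by all reads of the gene, so it understates editing where only some transcripts hold the position. At least 2 converted reads were seen at 2 of 26 OGT sites (7.69%, 0.946 to 25.1) and 4 of 36 OGA sites (11.1%, 3.11 to 26.1) in the RBFOX2 library. With the enzyme alone they were seen at 1 of 11 OGT sites (9.09%, 0.230 to 41.3) and 0 of 20 OGA sites, which allows a share of up to 15.0%. Over all genes the shares were 14.3% and 9.45%.

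The sites with the most reads, and the position found in both libraries, are shown because they carry the least counting error. Each is a 21-base stretch of the hg38 strand that holds the gene, written as DNA with the edited cytosine in capitals:
OGT chrX:71564664, exon 19, 2 reads in RBFOX2: cacccgttctCagtacgggtt
OGT chrX:71574287, 3'UTR, 2 reads in RBFOX2: tttctgaactCtgacagattg
OGT chrX:71575351, 3'UTR, 3 reads in enzyme-only: aagattcttaCtgttaaccaa
OGA chr10:101797354, 3' end of the short form, 2 reads in RBFOX2: cctttgaacaCtgattttttt
OGA chr10:101785581, 3'UTR, 2 reads in RBFOX2: gtgcctcccaCctaggcgtag
OGA chr10:101785563, 3'UTR, 2 reads in RBFOX2: taggccatgaCcatttggggt
OGA chr10:101784779, 3'UTR, 2 reads in RBFOX2: cctcagttttCtcgtcttaac
OGA chr10:101785453, 3'UTR, 1 read in each library: ttggatttgaCatgtcaggta
All 8 cytosines follow an A or a T, and none of the 8 windows holds UGCAUG.

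Where the sites lay along OGT differed between the libraries. In the RBFOX2 library 12 of 26 sites (46.2%, 26.6 to 66.6) lay in exons before the last one. In the enzyme-only library 0 of 11 did, which allows a share of up to 27.3% at 3 counts, where the exact interval ends at 28.5%. The exact intervals of the 2 shares thus overlapped slightly. These exons hold 626 of the exonic cytosines of OGT (60.9%). The exact interval of the scaled ratio reached down to 2.31-fold and has no upper end, since the enzyme-only count was 0. This segment was drawn after the sites had been seen, so its interval is a description and no test. The coding part of the last exon held 0 and 1 sites. In the 3'UTR of the last exon the counts were close, with 14 RBFOX2 and 10 enzyme-only sites and a scaled log2 ratio of 0.20 (-1.05 to 1.55). As shares of each library's OGT sites they were 53.8% and 90.9%.

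**Figure D1:**
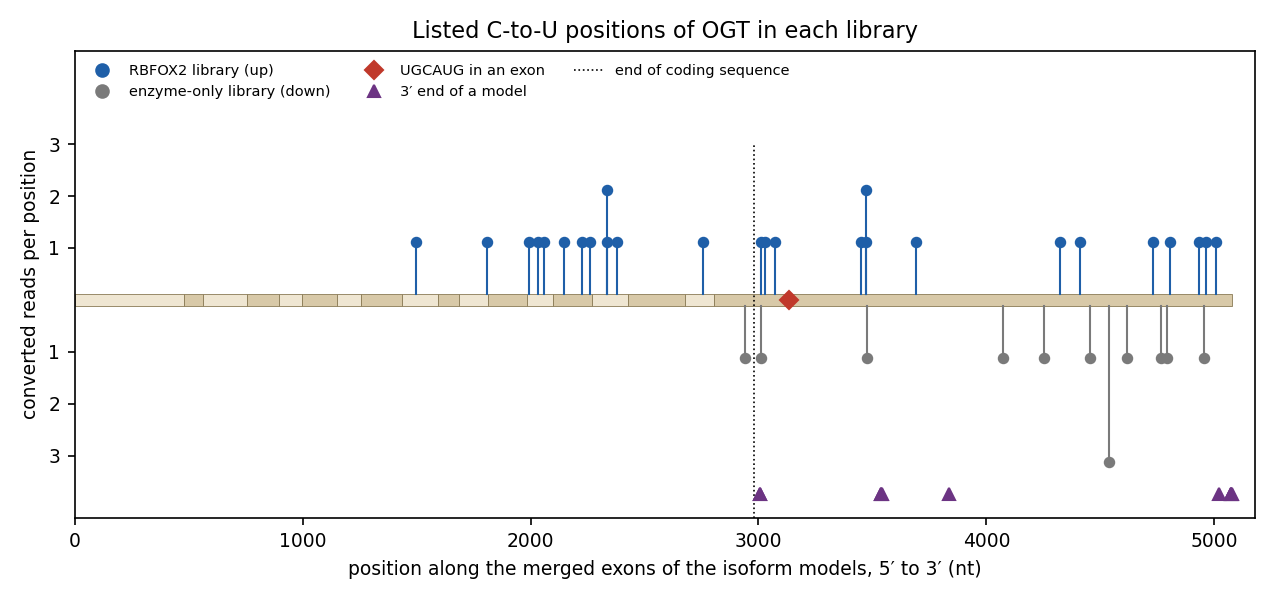
Listed positions of OGT along the merged exons of its 23 isoform models (x axis, nt from the 5′ end of the models) with converted reads per position (y axis), RBFOX2 library upward and enzyme-only library downward. The 12 RBFOX2 sites left of the last exon have no enzyme-only counterpart, and all 11 enzyme-only sites lie in the last exon.

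The 12 upstream OGT sites began in exon 13 of the 22 exons of the reference transcript and ended in exon 21. They fell in exons that encode the later part of the protein, which holds the catalytic region. Exon 17 held 3 of them, exon 18 another 3 and exon 19 another 3. Read in the frame of the reference transcript, 3 conversions were synonymous, 6 changed an amino acid and 3 created a stop codon. The 3 that create a stop codon are shown because a stop codon ends the reading frame, and 1 of them is the exon 19 position printed above. The windows of the others, with the edited base in capitals, were:
OGT chrX:71561898, exon 15, 1 read in RBFOX2: agctcctattCaggtaaacaa
OGT chrX:71564709, exon 19, 1 read in RBFOX2: taactttaatCagttgtataa
In the exonic cytosines of OGT, 44 could create a stop codon, 321 could change an amino acid and 202 were synonymous. The enzyme-only library had 1 coding site in OGT, a synonymous one at chrX:71573755. The exon 15 position lay within 3 nt of an internal exon edge, the only RBFOX2 site of OGT to do so, and its window runs into the intron.

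The number of models that hold a position rose from 4 of 23 at the first OGT site, through 15 to 18 in exons 18 and 19, to 23 of 23 in exon 21. In the last exon it fell again, from 23 to 21 and 13 and then to 10 in the distal 3'UTR, where 7 RBFOX2 and 8 enzyme-only sites lay. Reads per position or per model were not given, so the depth over the upstream exons in each library is unknown, and its part in the difference was not tested.

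In OGA the difference lay at the 3' end of the long form. The 3'UTR of the long form held 14 of 36 RBFOX2 sites (38.9%, 23.1 to 56.5) and 1 of 20 enzyme-only sites (5.0%, 0.127 to 24.9). The intervals of these 2 shares overlapped. The scaled log2 ratio was 3.01 (0.83 to 8.95), which rests on the 1 enzyme-only site. This segment too was drawn after the sites had been seen, so its interval is no test. The position listed in both libraries also lies there. Of the 316 cytosines in this 3'UTR, 4.43% were listed in the RBFOX2 library only against 0.316% in the enzyme-only library only. These shares leave out the position of both libraries, which would raise each. Of the 4 OGA sites with 2 converted reads, 3 lay in it.

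**Figure D2:**
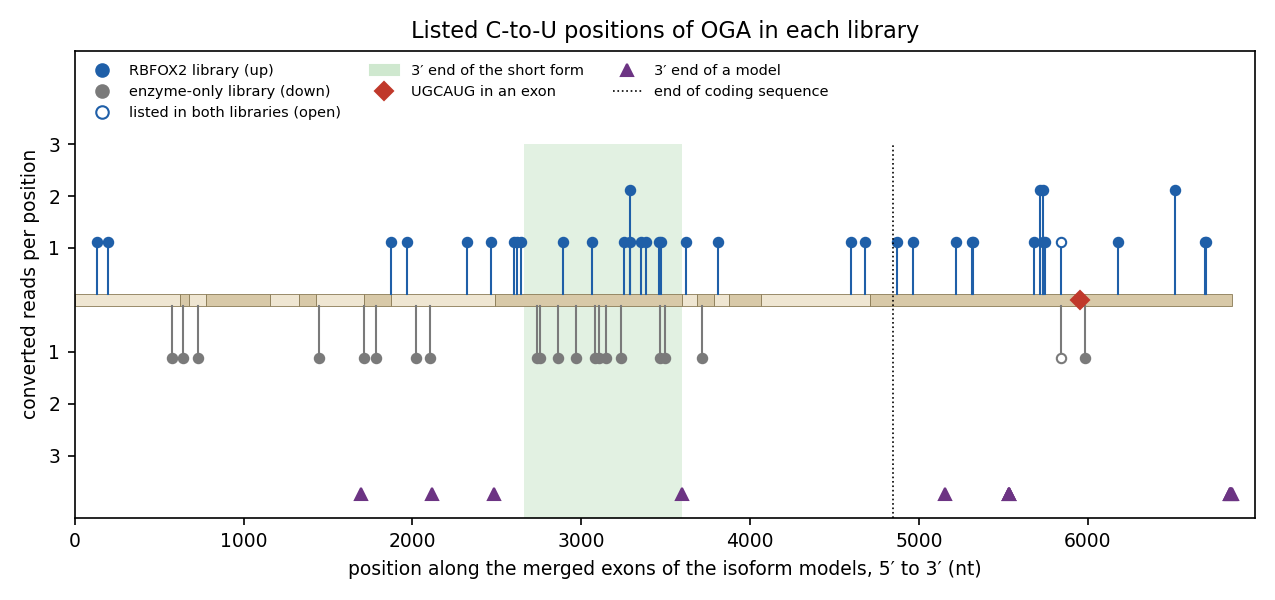
Listed positions of OGA along the merged exons of its 29 isoform models (x axis, nt from the 5′ end), with converted reads per position (y axis), RBFOX2 upward and enzyme-only downward. The shaded 3′ end of the short form holds 9 and 10 sites, and right of the dotted end of the coding sequence lie 14 RBFOX2 sites, 1 enzyme-only site and 1 position of both libraries, drawn open.

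The rest of OGA had similar numbers of sites in the libraries. Exons 1 to 10, shared by the short and long forms, held 9 RBFOX2 and 8 enzyme-only sites, a log2 ratio of -0.10 (-1.64 to 1.48). The 3' end of the short form runs 934 nt into intron 10, at chr10:101797046-101797979, and held 9 and 10 sites, a log2 ratio of -0.41 (-1.89 to 1.04). It was the most densely edited stretch of OGA in both libraries, with 5.08% and 5.65% of its 177 cytosines listed. The coding part of exons 11 to 16 held 4 and 1 sites. In the coding sequence of OGA as a whole, 6 RBFOX2 conversions were synonymous and 5 changed an amino acid. In the enzyme-only library these were 1 and 8. None of the OGA conversions created a stop codon in either library, where 41 exonic cytosines could have.

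**Figure D3:**
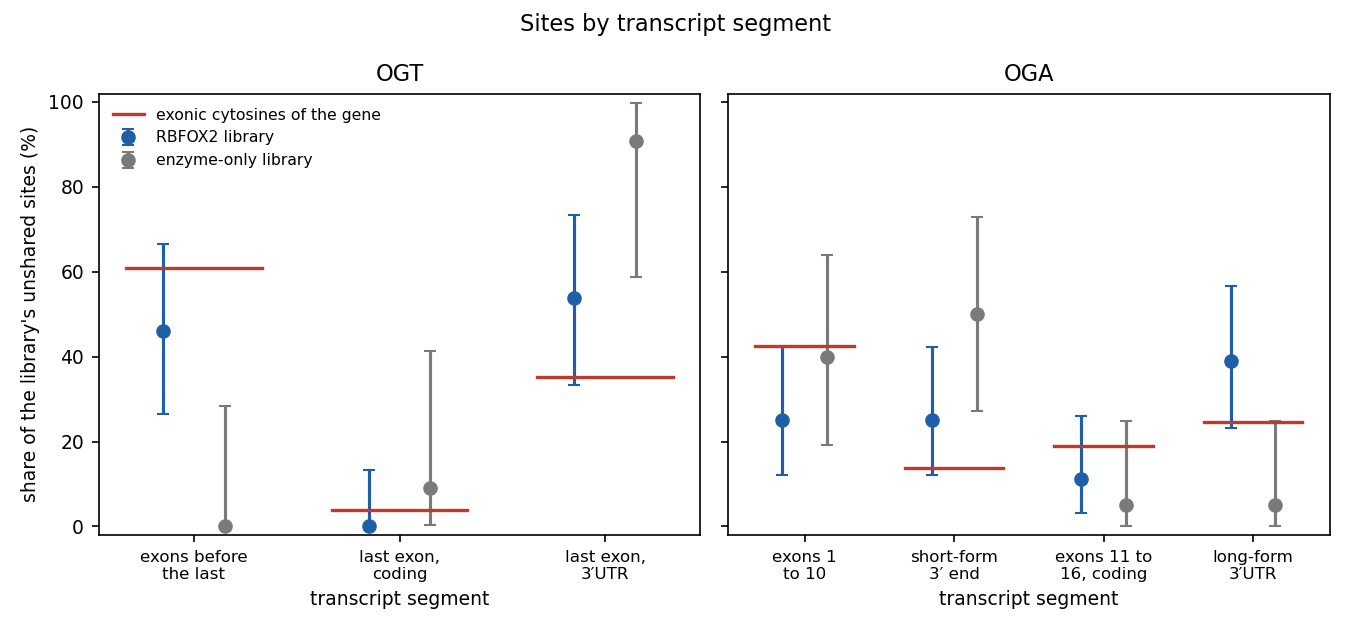
Share of each library's sites (y axis, %) by transcript segment (x axis) for OGT and OGA, with exact 95% intervals for counting error and a red line at the segment's share of the exonic cytosines. In OGT the libraries' points lie farthest apart in the exons before the last (46.2% and 0%) and then in the 3′UTR of the last exon (53.8% and 90.9%). In OGA they lie farthest apart in the long-form 3′UTR (38.9% and 5.0%).

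The segments were drawn after the sites had been seen and are descriptions. By annotated region, coding sequence counted first, OGT had 12 coding and 14 3'UTR sites in the RBFOX2 library against 1 and 10. OGA had 11 coding, 23 3'UTR and 2 5'UTR sites in the RBFOX2 library against 9, 11 and 0. The rule allowed introns, but 0 sites of either gene lay in one, the short-form end being annotated as an exon of its own transcript. The limits that a count of 0 allows were 11.5% and 27.3% for OGT and 8.33% and 15.0% for OGA.

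UGCAUG, the RBFOX2 element, was found next to few of the edits. In the annotated gene OGT holds 11 copies on its own strand, of which 1 lies in an exon of the models. OGA holds 2, again with 1 in an exon. Both exonic copies are in the 3'UTR and are shown with the motif in capitals:
OGT chrX:71573950-71573955: agacttgcttccTGCATGgtagggagagac
OGA chr10:101785340-101785345: gtctttaattctTGCATGtttgtatctaat
The OGT copy had its nearest RBFOX2 site at 64 nt and its nearest enzyme-only site at 124 nt. The OGA copy had its nearest RBFOX2 site at 108 nt, the position listed in both libraries, and its nearest enzyme-only site at 28 nt. Within 50 nt of UGCAUG lay 0 of 26 and 0 of 11 OGT sites, and 0 of 36 and 1 of 20 OGA sites. The zeros allow shares of up to 11.5%, 27.3% and 8.33% at 3 counts, where the exact intervals end at 13.2%, 28.5% and 9.74%. Of the exonic cytosines 1.85% in OGT and 1.40% in OGA lie that near, and over all genes 3.95% of RBFOX2 sites and 2.32% of enzyme-only sites did. A share of that size was not detectable at these site numbers. The paper shows OGT as an example RBFOX2 target gene in short-read data. It reports edit clusters at its example genes close to RBFOX2 binding peaks from an immunoprecipitation method, eCLIP. Neither those data nor the peaks were analysed here. The paper places edits at most 200 nt from the binding site. Within 200 nt of UGCAUG lay 3 of 26 and 2 of 11 OGT sites. For OGA these were 0 of 36 and 1 of 20, leaving out the position of both libraries. Of the exonic cytosines 7.68% in OGT and 5.22% in OGA lie within 200 nt.

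The shorter GCAUG, which UGCAUG contains, lay within 50 nt of 1 of 26 and 0 of 11 OGT sites. For OGA it lay within 50 nt of 5 of 36 RBFOX2 sites (13.9%, 4.67 to 29.5) and 4 of 20 enzyme-only sites (20%, 5.73 to 43.7), beside 12% of its exonic cytosines. Over all genes the shares were 9.85% and 8.0%. Within 200 nt lay 20 of 36 (55.6%, 38.1 to 72.1) and 8 of 20 (40%, 19.1 to 63.9) OGA sites, beside 31.0% of its exonic cytosines. For OGT these were 7 of 26 and 6 of 11, beside 36.4%. Of the OGA sites within 50 nt, 4 RBFOX2 sites lay around the copy at chr10:101797306-101797310. Another 3, of the enzyme-only library, lay around the copy at chr10:101797515-101797519. Both copies are in the 3' end of the short form. The closest approach of any site was 5 nt, at chr10:101787393 in exon 15, where the window was agcatgatggCttgcctcctg with the edited base in capitals. GCACG, a weaker element, lay within 50 nt of 1 of 26 and 0 of 11 OGT sites and of 0 OGA sites in either library.

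The base before the edited cytosine differed between the genes. APOBEC1 prefers an A or U there. In OGT 25 of 26 RBFOX2 sites (96.2%, 80.4 to 99.9) and 11 of 11 enzyme-only sites (100%, 71.5 to 100) had one. In OGA 25 of 36 (69.4%, 51.9 to 83.7) and 11 of 20 (55%, 31.5 to 76.9) did. The exonic cytosines of the genes are alike in this, with 51.2% in OGT and 52.0% in OGA. Over all positions of both libraries, OGT had 36 of 37 (97.3%, 85.8 to 99.9) and OGA 37 of 57 (64.9%, 51.1 to 77.1), intervals that do not overlap. The pooling was added after the values were seen and has no test. All genes together had 71.6% in the RBFOX2 library against 63.8% with the enzyme alone. In OGT the base was U at 15 and A at 10 RBFOX2 sites, and U at 2 and A at 9 enzyme-only sites.

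Sites of OGT and OGA lying close to one another were listed in the RBFOX2 library. Within 10 nt of another site of the same library lay 4 of 26 OGT sites (15.4%, 4.36 to 34.9) and 8 of 36 OGA sites (22.2%, 10.1 to 39.2), against 0 of 11 and 0 of 20. These zeros allow 27.3% and 15.0%, and over all genes the shares were 25.5% and 21.4%. Across the libraries, 4 of the 26 RBFOX2 sites of OGT lay within 10 nt of an enzyme-only site and 1 of the 36 of OGA did.

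The isoform models show how much of each RNA the reads reached. None of the 23 OGT models reached the first of 22 exons, and they held 2 to 18 exons. They used 4 groups of 3' ends, all in the last exon. From 5' to 3' these held 2 models ending at chrX:71573820-71573822, 8 at chrX:71574351-71574356, 3 at chrX:71574648 and 10 at chrX:71575834-71575890. The 29 OGA models held 2 to 16 exons and 7 of them reached the first exon. Of the OGA models 10 ended at the distal end of the long 3'UTR, 5 and 2 at nearer ends, and 7 at the end of the short form. Another 5 ended in exons 7 and 9.

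The editsC of a model is the share of its exonic cytosines that were listed. Reads were not assigned to models, so a position listed for the gene counts in every model whose exons hold it. These values are therefore not editing measured on single isoforms. All 23 OGT models had a higher editsC in the RBFOX2 library, at 2.55% to 4.79% against 0.40% to 2.67%, and the ranges overlapped slightly. Medians were 3.92% and 1.16%. For OGA it was higher in 23 models and lower in 4, with medians of 3.48% and 1.03%. Models of a gene share positions and are not independent of one another.

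Grouped by 3' end, the editsC of the OGA models restates the segment counts above, since it follows from which segments a model covers. It is no separate result about isoforms. The 17 long-form models had editsC of 2.11% to 4.31% in the RBFOX2 library against 0% to 1.26% with the enzyme alone, and the ranges did not overlap. The 7 short-form models had 2.64% to 4.75% and 2.64% to 3.80%, overlapping ranges. Of the 5 models that ended in exons 7 and 9, 4 were lower in the RBFOX2 library, at 0.608% to 1.29% against 1.22% to 2.26%, and 1 was equal at 2.72%. All 4 rested on 2 to 6 RBFOX2 and 4 to 8 enzyme-only sites.

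None of the 52 models lay more than 1.5 SD of the residuals above the line fitted over all isoforms. The limit below the line was under 0% for all 52, so none could have been called lower, whatever its editsC. The OGT residuals ran from 0.02 to 0.93 SD and those of OGA from -0.61 to 0.91 SD. Over the 108386 isoforms with a site, 6.47% lay that far above the line. The 2.45% of isoforms that far below it are given for completeness and bear on no OGT or OGA model. The line had a slope of 0.76, an intercept of 1.32% and a residual SD of 3.00%.

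**Figure D4:**
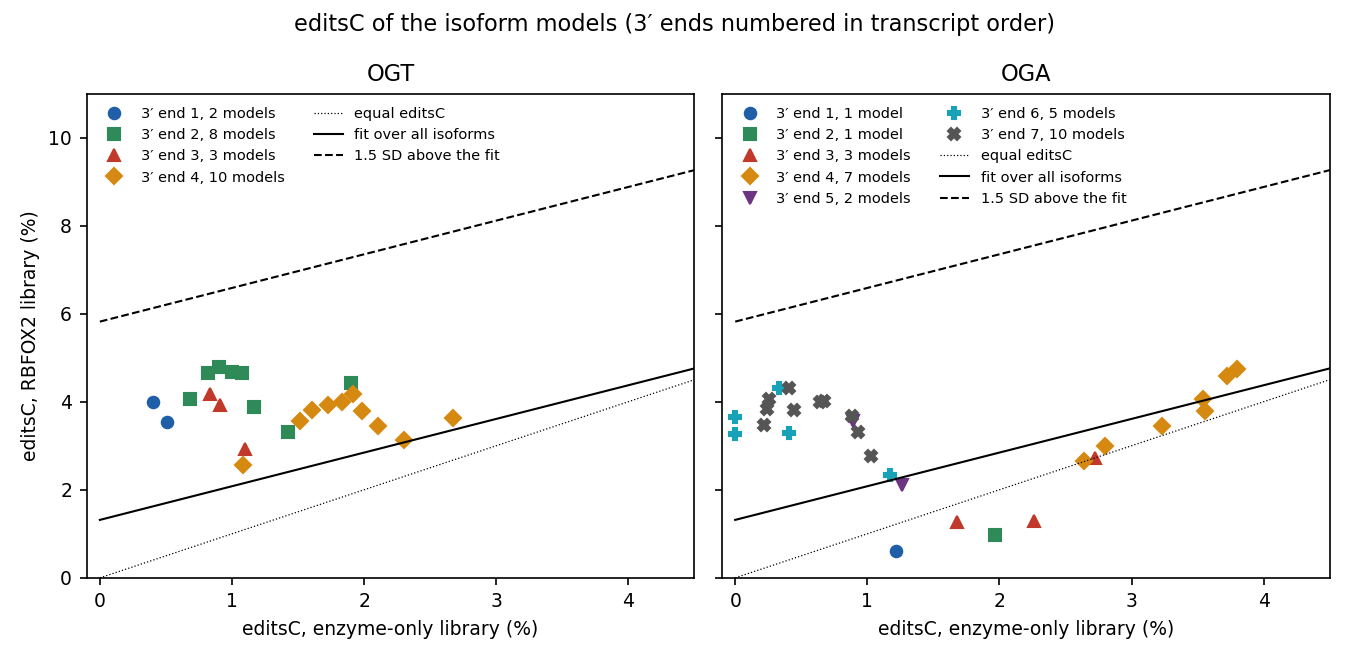
editsC (%) of the 23 OGT and 29 OGA models in the enzyme-only library (x axis) and the RBFOX2 library (y axis), with symbols by 3′ end numbered in transcript order, the line of equal editsC (dotted), the fit over all isoforms (solid) and 1.5 SD above it (dashed). All models lie under the dashed line, and the OGA short form (3′ end 4) lies on or just above the dotted line while the long-form ends 5 to 7 lie above it.

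Genes of the pathway were examined beside OGT and OGA: 10 that make or recycle the hexosamines behind UDP-GlcNAc, 12 partners of OGT, 5 other enzymes or carriers of N-acetylglucosamine, and SFSWAP, a splicing factor tied to retained introns. Of these 28 genes 22 had a listed site and 12 had at least 20 sites. Among the 12, 1 was more than 2-fold higher in the RBFOX2 library and 1 more than 2-fold lower, where all genes had 16.8% and 14.6%. The median log2 ratio of the 12 was 0.18 against 0.08 over all genes.

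The higher gene was HCFC1, a chromatin cofactor that OGT modifies and cleaves, with 29 RBFOX2 and 11 enzyme-only sites and a log2 ratio of 1.10 (0.09 to 2.28). With positions of both libraries kept, it no longer passed 2-fold. The lower was NAGK, the kinase that salvages N-acetylglucosamine, with 8 and 18 sites and a log2 ratio of -1.39 (-2.84 to -0.16). Of the synthesis enzymes, PGM3 had 30 and 15 sites and UAP1, which makes UDP-GlcNAc, had 40 and 29, with log2 ratios of 0.71 (-0.20 to 1.74) and 0.19 (-0.53 to 0.94). The 6 hexosamine genes with enough sites had a median log2 ratio of -0.21 and the 4 OGT partners one of 0.37. SFSWAP had 25 and 16 sites, a log2 ratio of 0.36 (-0.58 to 1.38). GFPT1, the rate-limiting enzyme of the pathway, had too few sites to be counted, 7 and 4.

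**Figure D5:**
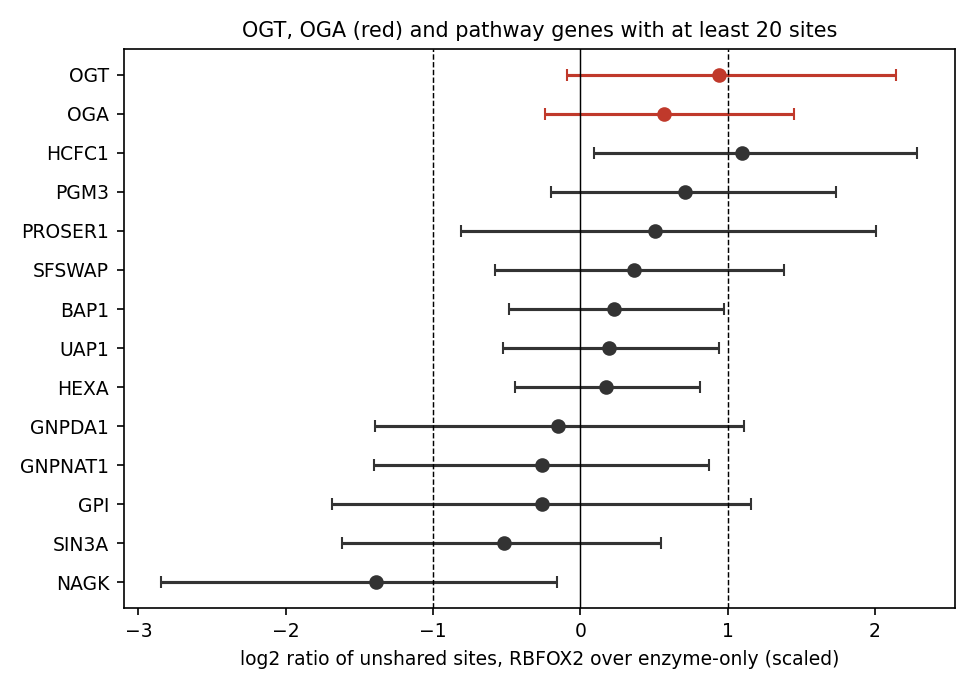
Log2 ratio of sites, RBFOX2 over enzyme-only, scaled by library totals (x axis), for OGT and OGA (red) and the 12 pathway genes with at least 20 sites (black), with exact 95% intervals for counting error and dashed lines at 2-fold. HCFC1 and NAGK are the points outside the dashed lines, and OGT at 0.94 and OGA at 0.57 lie inside them by this scaling.

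By sites and gene reads in both libraries, 4 values on the log2 scale, the nearest of 7727 genes to OGT were PTS (distance 0.12), HDGFL3 (0.12) and RCE1 (0.14). PTS and HDGFL3 each had 26 and 11 sites, as OGT did. The nearest to OGA were ASPH (0.16), TIMM44 (0.16) and POLR1D (0.18), with 33 to 34 RBFOX2 and 20 to 22 enzyme-only sites.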

How the data were processed

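Edit tables of 2 libraries, 1 per group, and a table of isoform models were used. Per the labels the genome build was hg38. The authors deposited for every site the count of converted reads, the count of reads of its gene and their quotient, an edit fraction. Listed fractions exceed 0.002, so 1 converted read is listed only under 500 gene reads, as OGT and OGA had in both libraries. A confidence score deposited by the authors was not used. The version and settings behind the isoform models are not given in the sources used here. The study's methods describe another library kit and replicates, which were not analysed here.

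Loci were matched to GENCODE 44 with bedtools 2.31.1. Comparisons left out positions that both libraries list. Log2 ratios used a pseudocount of 0.5, were scaled by library totals (109357 and 91111 sites) and carry intervals from scipy 1.17.1. Motifs were sought on the gene's strand only. editsC took the study's ratio of listed to all exonic cytosines, over isoforms with at least 1 site. Unlike in the study, reads were not assigned to isoforms and no limit on isoform coverage or edit fraction was set. No p-value was computed. The calculations were tested on simulated data.

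The genes, pathway lists and rules were chosen with earlier results of these data known. Named genes were OGT, OGA, the pathway lists and the 3 genes nearest to each. Transcript segments, neighbouring sites, codon classes, groups of 3' ends and exon edges were added after the sites were seen. Alternatives changed the shared sites, converted reads, scaling, pseudocount, region order, motif and window, SD limit and site minimum.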

Additional observations from a re-analysis of the deposited data

How the results depend on the processing

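Of 68 alternatives to the values above, 57 stayed within the counting interval of the value or, for counts, within 1.5 times, and 11 moved. Some of the 57 could not have moved. Among them are OGT shares with shared sites kept, motif shares with introns included, and counts of models below the line by 2 SD. The count of 57 is therefore no measure of how stable the results are. Scaled by gene reads, OGT stayed within its interval but passed 2-fold, with a log2 ratio of 1.03. With at least 2 converted reads, the log2 ratio was -0.12 for OGT, on 2 and 1 sites, and 2.31 for OGA, on 4 and 0 sites. The share of RBFOX2 sites after A or U was then 100% in OGT and 100% in OGA, and OGA had no enzyme-only site left for a value. With 3'UTR counted before coding sequence, 100% of OGT sites were 3'UTR in the RBFOX2 library against 100% with the enzyme alone. Annotation other than the reference transcript thus places the coding positions of OGT in a 3'UTR. Their codon classes hold for the reference transcript only, and which transcripts the edited reads came from is unknown. The OGA share near the motif was 13.9% in the RBFOX2 library with GCAUG and 0% in the enzyme-only library with a window of 20 nt. Pathway genes above 2-fold numbered 2 with at least 10 sites and 0 with shared sites kept, and those below numbered 3 with at least 10 sites. No paired analysis was possible because each group had 1 library and their replicate numbers differ. Site numbers of 11 to 36 per gene and library limit every share, and most sites rest on 1 read.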
